A study of Mus musculus with 72 samples.

Results

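The comparison described here is between kidney medulla of mice exposed to 177Lu at an absorbed dose of 3 Gy and kidney medulla of control mice, both taken at 3 months. Its arrays were chosen by their titles, and 6 of the 72 arrays of the series entered it: 3 of the 3 Gy group and 3 of the control group. All mice were of the Balb/c strain, and 177Lu is a radionuclide that emits beta particles. The controls carry the same nuclide label, 177-lutetium, but no absorbed dose. The full series covers cortex and medulla, absorbed doses of 0.3, 3 and 10 Gy beside controls, and times of 1.5, 3 and 4.5 months, with 3 arrays in each of 24 groups. The labels give neither age nor sex. Nor do they state that the 3 samples of a group are 3 mice, and the p-values therefore reflect only sample-to-sample spread. For each gene symbol the brightest probe, by its mean over the 72 arrays, was used. Of 16593 genes on the array, 8208 had an intensity of 150 or more on all 3 arrays of either group and were tested, and 8385 were not.

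The kidney medulla holds the loops of Henle, the collecting ducts, their straight vessels and an interstitium, and it works at high salt, high urea and low oxygen. Cells there rely on molecular chaperones, proteins that hold or refold other proteins. Hsp90 and Hsp70 are the central chaperones, co-chaperones such as Dnajb1, Stip1 and Chordc1 steer their clients, and the transcription factor Hsf1 switches many of these genes on. Corticosteroid hormones act in the same tubules through receptors that Hsp90 keeps ready to bind, and both their secretion and many kidney transporters follow the circadian clock. After irradiation the best known transcriptional response is that of p53, which induces the cell cycle inhibitor Cdkn1a and its own antagonist Mdm2.

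The label of the tissue was checked against marker genes. Slc12a1, the salt cotransporter of the thick ascending limb, read 19300 to 21200 intensity units on the 3 Gy arrays and 20000 to 24500 on the control arrays. Slc14a2, the urea transporter of the inner medulla, read 1960 to 2290 at 3 Gy and 2130 to 2570 in controls, and in controls its mean log2 intensity was 4.07 higher in medulla than in cortex. The water channel Aqp2 of the collecting duct read 892 to 1250 at 3 Gy and 1060 to 1480 in controls. Proximal tubule RNA was also present, with the phosphate transporter Slc34a1 at 22900 to 24500 on the 3 Gy arrays and 21600 to 22900 on the control arrays. In controls Slc34a1 differed between medulla and cortex by only 0.1 log2 units (medulla minus cortex). Of the other proximal tubule markers, Lrp2 differed by 0.11 and Slc22a6 by -0.95. Slc12a3 of the distal convoluted tubule differed by -1.47. The same difference was 1.34 for Slc12a1, but -0.26 and 0.0 for Umod and Cldn16 of the same segment. Among collecting duct genes it was 1.03 for Aqp2, 0.38 for Aqp3, 1.87 for Fxyd4 and -0.62 for Scnn1g. The markers thus did not all separate the 2 tissues. The mean Pearson r of each of the 6 arrays with the other medulla arrays, across genes, lay between 0.98 and 0.987, within the range of all 36 medulla arrays (0.974 to 0.987).

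The main question was which genes differ between 3 Gy and control medulla at 3 months. In limma, 4 of 8208 genes passed an adjusted p of 0.05 (0.0487%). Chordc1 and H2aw rose (0.0244%), and Noct and 2410002F23Rik fell (0.0244%). A further group lay close to the threshold, and 21 genes had an adjusted p under 0.1, 15 of them higher and 6 lower. At an unadjusted p under 0.05 there were 904 genes (11%), with 583 higher (7.1%) and 321 lower (3.91%). The 3 Gy arrays lay wholly above the control arrays for 1048 genes (12.8%) and wholly below them for 640 (7.8%). The median size of the difference, without its sign, was 0.12 log2 units and the median SE 0.127, and 8 genes differed by more than 1 log2 unit, 3 upward and 5 downward. The median difference of all genes was 0.02, and 55.1% of genes lay above 0.

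**Figure D1:**
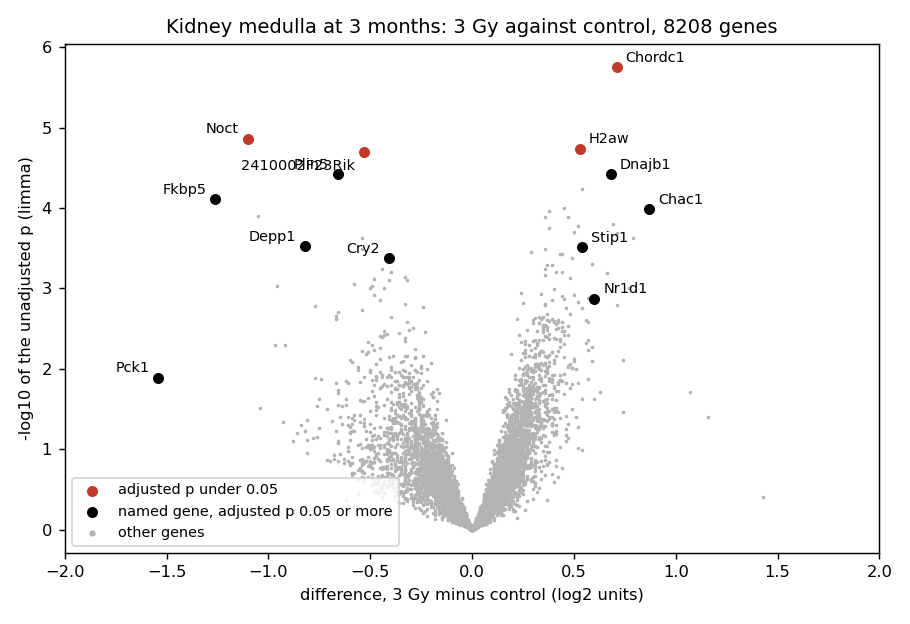
Difference between 3 Gy and control medulla at 3 months on the x axis (log2 units, 3 Gy minus control) against the -log10 of the unadjusted limma p on the y axis, 1 point per gene. The 4 genes with an adjusted p under 0.05 are red (Chordc1, H2aw, Noct and 2410002F23Rik), and Dnajb1 and Plin5 lie just under them.

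Chordc1, a zinc-binding co-chaperone of Hsp90 that is itself induced by heat shock, had the smallest p. Its intensity was 2240, 2490 and 2290 on the 3 Gy arrays and 1260, 1340 and 1730 on the control arrays. The groups did not overlap, and control replicate 3 was the control nearest to the 3 Gy arrays. Chordc1 rose by 0.71 ± 0.12 log2 units (SE), or 1.63-fold (95% interval 0.46 to 0.95 log2 units; adjusted p = 0.0145 in limma). It passed in 12 of 15 alternatives, with adjusted p between 0.000557 and 0.248. It did not pass without 3 Gy replicate 2 (adjusted p = 0.177), without 3 Gy replicate 3 (0.0882) or in a fit of the 6 arrays alone (0.248), although its difference stayed between 0.62 and 0.84 throughout.

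H2aw, which encodes a histone H2A, was dim. It read 197, 212 and 205 on the 3 Gy arrays and 128, 162 and 139 on the control arrays, so that 2 of the control values lay under the floor of 150. No control reached the lowest 3 Gy value. H2aw met the floor only through the 3 Gy group, in which it was higher, so the filter favoured such a rise. With no floor its adjusted p in limma was 0.087. Rbm15, Lum, Thbs1, Egr2 and Col1a1, given below, also met the floor only through the 3 Gy group. H2aw rose by 0.53 ± 0.10 log2 units (adjusted p = 0.0412 in limma). The call held in 3 of 14 alternatives, with array weights, with cyclic loess and without control replicate 2, where the adjusted p was 0.0213. Leaving out any of the other 5 arrays ended it, with adjusted p between 0.0864 and 0.262.

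Noct encodes nocturnin, an enzyme named for its rhythmic expression. It read 914, 978 and 843 on the 3 Gy arrays, against 1340, 1680 and 3280 on the control arrays. The 3 Gy values were close together and below every control, and control replicate 3 stood well above the other controls. Noct fell by 1.10 ± 0.21 log2 units (adjusted p = 0.0412 in limma). A second probe of Noct, not used in the test, differed by -1.40. Without control replicate 3 the difference of Noct was -0.72 (adjusted p = 0.18), and without any 1 of the 3 Gy arrays the adjusted p lay between 0.0864 and 0.177. Leaving out control replicate 1 gave an adjusted p of 0.00223 and leaving out control replicate 2 gave 0.0405. The Noct level of the 3-month controls lay above that of all other medulla controls, which read 446, 539 and 431 at 1.5 months and 663, 618 and 713 at 4.5 months.

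The transcript 2410002F23Rik, which has only a clone name in the array's annotation, read 268, 274 and 251 at 3 Gy and 457, 350 and 350 in controls. The groups did not overlap. It fell by 0.53 ± 0.11 log2 units (adjusted p = 0.0412 in limma). Of its 2 other probes, 1 above the intensity floor differed by -0.39 and 1 below it by -0.07. The adjusted p of 2410002F23Rik was 0.0405 without control replicate 2 and between 0.0768 and 0.177 without any of the other 5 arrays.

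**Figure D2:**
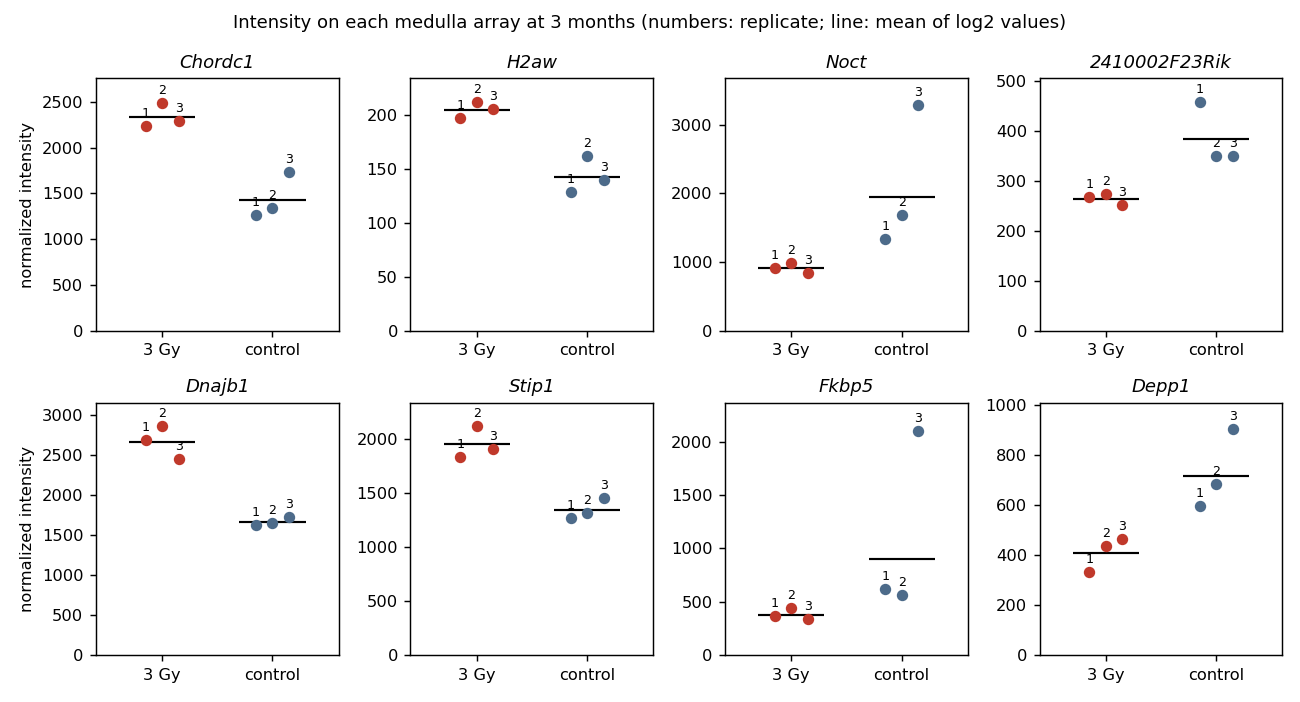
Normalized intensity (y axis, linear, from 0) of 8 genes on the 3 Gy and control arrays, 3 Gy at left. Each point is 1 array with its replicate number and each line the mean of the log2 values; no gene shown has overlapping groups, and control replicate 3 is the highest array for Noct, Fkbp5 and Depp1.

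Chordc1 belongs to a list of heat shock and chaperone genes, of which 28 of 32 were tested. In that list 17 lay above 0 and 11 below, with a median difference of 0.09 log2 units against 0.02 for all genes. Of the 28 genes, 1 passed (Chordc1), 8 were higher at an unadjusted p under 0.05 (7.1% of all genes were) and 0 were lower, and in 10 the 3 Gy arrays lay wholly above the controls (12.8% of all genes). The summed intensity of the list ran from 65600 to 68700 on the 3 Gy arrays and from 54800 to 62600 on the control arrays. The lowest value of the 6 arrays fell on control replicate 1 for 17 of the 28 genes (60.7%), against 19.2% of all genes. Without that array 6 genes were higher at an unadjusted p under 0.05. Leaving out 3 Gy replicate 2 gave 4, and leaving out any of the other 4 arrays gave 6 to 9.

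Dnajb1, the Hsp40 co-chaperone that hands clients to Hsp70, read 2690, 2860 and 2450 at 3 Gy and 1620, 1650 and 1730 in controls. Both groups were tight and far apart, but its difference of 0.68 ± 0.14 log2 units had an adjusted p of 0.0518 in limma, just outside the threshold. Stip1, which bridges Hsp70 and Hsp90, read 1830, 2120 and 1910 at 3 Gy and 1270, 1310 and 1450 in controls, without overlap. Its difference was 0.54 ± 0.13 (adjusted p = 0.107).

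Fkbp4, an immunophilin that aids steroid receptors on Hsp90, read 4440, 6050 and 4770 at 3 Gy and 3540, 3730 and 3740 in controls. That is a difference of 0.46 ± 0.13 (adjusted p = 0.197 in limma). The remaining 4 members with an unadjusted p under 0.05 are named after their values were seen. They were the inducible Hsp70 Hspa1a, the constitutive Hsp70 Hspa8, the Hsp90 activator Ahsa2 and the Hsp70 nucleotide exchange factor Bag3. Hspa1a read 661, 993 and 840 at 3 Gy and 474, 543 and 572 in controls, a difference of 0.63 ± 0.26. The differences of Hspa8, Ahsa2 and Bag3 were 0.24 ± 0.11, 0.22 ± 0.09 and 0.27 ± 0.13, and in all 4 the groups did not overlap. A second, dimmer probe of Hspa8 differed by 0.82. Cct3, a subunit of the cytosolic chaperonin, and Cryab, a small heat shock protein, were the other members without overlap, at 0.10 ± 0.08 and 0.19 ± 0.29, and did not reach an unadjusted p under 0.05. Further partners of Hsp70 and Hsp90, also named after their values were seen, lay below 0, with St13 at -0.42, Dnajb4 at -0.41 and Ptges3 at -0.25. The main stress-inducible Hsp90, Hsp90aa1, differed by -0.02 ± 0.44, the small heat shock protein Hspb1 by -0.08 ± 0.27, and the mitochondrial chaperonin genes Hspd1 and Hspe1 by -0.01 ± 0.12 and -0.42 ± 0.39. A second probe of Hspd1 differed by 0.33.

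Hsf1 binds inverted repeats of GAA, and promoter windows (RefSeq, GRCm38.p6, from 250 bases before to 50 bases after each start) were searched on both strands for TTCNNGAANNTTC, a run of 3 such units. It was in 0.603% of 32851 windows and in 35 of the 6695 tested genes with a window (0.523%). Among the chaperone list it was found in 5 of the 24 genes with a window: Chordc1, Hspd1, Hspe1, Dnajb6 and Hsph1. The stretches of 3 of these genes are shown because they set the gene with the smallest p beside genes whose groups overlapped. Capitals mark the matched bases.
Chordc1: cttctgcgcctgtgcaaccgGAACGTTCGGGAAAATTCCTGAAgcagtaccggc
Hspe1: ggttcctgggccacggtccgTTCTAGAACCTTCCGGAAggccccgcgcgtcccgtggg
Dnajb6: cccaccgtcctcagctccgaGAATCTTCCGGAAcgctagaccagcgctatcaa

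The Chordc1 stretch (chr9:18292243-18292296, plus strand) holds 3 overlapping matches that span the start, from base -4 to base 19. The Hspe1 stretch (chr1:55088039-55088096, plus strand) holds 2 overlapping matches and is shared with Hspd1, which is transcribed the other way from the minus strand. The Dnajb6 stretch (chr5:29735832-29735884, plus strand) holds 1. On the arrays Chordc1 differed by 0.71 ± 0.12, Dnajb6 by 0.16 ± 0.16 (-0.17 at its second probe), Hspe1 by -0.42 ± 0.39 and Hsph1, an Hsp110 chaperone, by 0.28 ± 0.19 log2 units. Genes with the matched letters thus lay on both sides of 0, and of them Chordc1 alone passed the test. The letters are a description of the sequence and not evidence of binding, and their lack in the windows of Dnajb1 and Stip1 says only that they are not in those windows.

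Genes that answer to FOXO factors, fasting or glucocorticoids lay on the other side. Of 23 tested members, 19 lay below 0 and 4 above, with a median difference of -0.26 log2 units against 0.02 for all genes. No member passed in limma, 8 were lower at an unadjusted p under 0.05 (3.91% of all genes were) and 0 were higher, and in 7 the 3 Gy arrays lay wholly below the controls (7.8% of all genes). The summed intensity ran from 55000 to 58900 at 3 Gy and from 57500 to 97300 in controls. Control replicate 3 held the highest of the 6 values for 18 of the 23 members (78.3%), against 15% of all genes. Without that array 2 members were lower at an unadjusted p under 0.05 and the list's median was -0.16. Leaving out 3 Gy replicate 2 or 3 gave 5, and leaving out any of the other 3 arrays gave 7 to 9.

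Fkbp5, a co-chaperone of Hsp90 that restrains the glucocorticoid receptor and is among its strongest targets, led the list. It read 362, 435 and 340 on the 3 Gy arrays, against 621, 563 and 2100 on the control arrays. The groups did not overlap, and control replicate 3 was far above the other controls. The difference of Fkbp5 was -1.26 ± 0.27 log2 units (adjusted p = 0.0761 in limma). It was -0.65 without control replicate 3 (adjusted p = 0.213), -1.53 without control replicate 1 (0.0313) and -1.60 without control replicate 2 (0.0213). The controls of the other times lay lower and closer together, at 249, 261 and 246 at 1.5 months and 239, 281 and 276 at 4.5 months.

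Depp1, a FOXO target linked to autophagy, read 331, 437 and 464 at 3 Gy and 595, 686 and 906 in controls, a difference of -0.82 ± 0.20 (adjusted p = 0.107 in limma). Its groups were separate, and its 3-month controls overlapped the other controls, which read 621, 450 and 527 at 1.5 months and 409, 603 and 500 at 4.5 months. Pck1, the rate-controlling enzyme of gluconeogenesis, had the largest negative difference of all genes, -1.54 ± 0.58. It read 1220, 839 and 1570 at 3 Gy and 1830, 3650 and 5900 in controls, with an adjusted p of 0.346. Cebpb, a transcription factor of gluconeogenesis and inflammation, read 1070, 1060 and 1060 at 3 Gy and 1280, 1310 and 2220 in controls (difference -0.54 ± 0.18, adjusted p = 0.294). Tsc22d3, the glucocorticoid-induced leucine zipper, read 2460, 2590 and 2280 at 3 Gy and 2740, 3610 and 5780 in controls, a difference of -0.66, and its dimmer probe differed by -0.19. In each of these genes control replicate 3 was again the highest array. Members above 0 were few, and Bcl6, a repressor under FOXO control, had the largest such difference, 0.41 ± 0.21.

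The E-box CACGTG, the site of Clock and its partners, was in 7.15% of promoter windows and in 12.1% of the tested genes with a window. In this list 6 of 21 genes with a window held it. So did 3 of 13 in the clock list described below and 3 of 24 in the chaperone list. Per1 belongs to both the present list and the clock list. These letters, too, are a description of the sequence and not evidence of binding. Among the 6 genes was Fkbp5, whose stretch is shown because this gene also led the list.
Fkbp5: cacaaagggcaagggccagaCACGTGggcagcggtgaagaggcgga

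It lies at chr17:28486293-28486338 on the minus strand of GRCm38.p6, with the E-box in capitals 169 to 164 bases before the start (bases -169 to -164). The letters GNACANNNTGTNC of a glucocorticoid response element were in 0.475% of windows and, within the list, in those of Sgk1 and Mt1. Sgk1, the aldosterone- and glucocorticoid-induced kinase of the collecting duct, differed by -0.24 ± 0.22, with 8820, 8990 and 8380 at 3 Gy and 7630, 10800 and 13400 in controls. Mt1, a metallothionein, differed by -0.30 ± 0.22. The groups of Sgk1 and Mt1 overlapped.

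The clock list lay on both sides of 0. Of 15 tested members 8 lay above 0 and 7 below, and 0 passed in limma. At an unadjusted p under 0.05 there were 2 higher and 3 lower members, where 7.1% and 3.91% of all genes were. Clock, the activator of the circadian loop, read 1320, 1420 and 1190 at 3 Gy and 896, 968 and 1030 in controls (difference 0.44 ± 0.11, adjusted p = 0.134). Nr1d1, a repressor in the loop, read 397, 434 and 398 at 3 Gy and 318, 225 and 276 in controls (0.60 ± 0.17, adjusted p = 0.185). Cry2, another repressor, read 224, 205 and 243 at 3 Gy and 322, 289 and 281 in controls (-0.41 ± 0.10, adjusted p = 0.115). None of these 3 genes had overlapping groups, and a dimmer probe of Nr1d1 differed by 0.34. Tef, a clock-controlled transcription factor, differed by -0.53 ± 0.25 and Per1 by -0.47 ± 0.29, while Per2 and Per3 differed by 0.01 ± 0.17 and 0.06 ± 0.13. Second, dimmer probes of Tef and Per1 differed by 0.18 and -0.13. The hour of tissue collection is not given in the labels, and its part in these values was not tested.

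The other genes with the smallest p in each direction did not pass, and their groups did not overlap. On the higher side stood Sult1c2, a cytosolic sulfotransferase, with 5480, 7650 and 6660 at 3 Gy and 4570, 4710 and 4230 in controls (0.54 ± 0.11, adjusted p = 0.0681 in limma, and 0.0308 without 3 Gy replicate 1). Rbm15, an RNA-binding protein of the complex that methylates adenosine in mRNA, read 203, 185 and 196 at 3 Gy and 145, 150 and 155 in controls (0.38 ± 0.08, adjusted p = 0.0761). It met the intensity floor only through the 3 Gy group, and with no floor its adjusted p in limma was 0.177. Gimap8, a GTPase of the immunity-associated family, read 1310, 1350 and 1410 at 3 Gy and 1010, 697 and 841 in controls (0.69 ± 0.16, adjusted p = 0.0843, and 0.0359 without control replicate 1). D6Wsu163e and the membrane protein gene Tmem185b differed by 0.45 ± 0.10 and 0.36 ± 0.08. The other probes of D6Wsu163e differed by 0.33 and -0.11, and the mean over its probes by 0.22 (adjusted p = 0.236). The probe used for Mrpl51, a protein of the mitochondrial ribosome, differed by 0.47, but its 2 other probes above the floor differed by -0.20 and -0.06, and the mean over its probes by 0.07.

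On the lower side stood Plin5, a coat protein of lipid droplets, with 196, 166 and 165 at 3 Gy and 302, 243 and 288 in controls (-0.66 ± 0.14, adjusted p = 0.0518 in limma, and 0.0405 without control replicate 2). A second probe of Plin5, below the floor, differed by -0.02, and the mean of both by -0.34. Slc16a14, of the monocarboxylate transporter family, read 167, 156 and 197 at 3 Gy and 214, 322 and 661 in controls (-1.05 ± 0.24, adjusted p = 0.0761). Without control replicate 3 the difference of Slc16a14 was -0.61 (adjusted p = 0.328), and without control replicate 1 it was -1.42 (adjusted p = 0.00223). Eif4ebp1, which holds back cap-dependent translation, read 861, 645 and 740 at 3 Gy and 1040, 1060 and 1150 in controls (-0.54 ± 0.13, adjusted p = 0.0931). Mlycd, the malonyl-CoA decarboxylase that frees fatty acid oxidation from inhibition, differed by -0.54 ± 0.13 and Mbtd1, a chromatin reader, by -0.44 ± 0.11.

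In the unfolded protein response, 0 of 16 tested genes passed in limma, and 4 were higher and 0 lower at an unadjusted p under 0.05 (7.1% and 3.91% of all genes). Chac1, a glutathione-degrading enzyme induced by Atf4 and Ddit3, read 582, 697 and 543 at 3 Gy and 419, 259 and 335 in controls, without overlap (0.87 ± 0.19, adjusted p = 0.0761, and 0.0313 without control replicate 1). Ddit3, the transcription factor also called CHOP, read 267, 376 and 345 at 3 Gy and 197, 208 and 245 in controls (0.60 ± 0.17, adjusted p = 0.188), and its dimmer probe differed by 0.26. The remaining higher members were Calr, a chaperone of the endoplasmic reticulum, at 0.60 and Creld2 at 0.33 (0.23 at its dimmer probe). Other chaperones of that compartment, Hspa5 and Hsp90b1, ranked lower by p and differed by -0.32 ± 0.41 and -0.01 ± 0.14. The list's median was 0.01.

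In cholesterol synthesis 11 of 15 tested genes lay above 0 (55.1% of all genes), with a median of 0.17, and 5 had 3 Gy arrays wholly above the controls (12.8% of all genes). In limma 0 passed, and 4 were higher at an unadjusted p under 0.05 (7.1% of all genes). Lss, lanosterol synthase, read 378, 369 and 385 at 3 Gy and 275, 308 and 298 in controls (0.36 ± 0.12, adjusted p = 0.3). Sqle, squalene epoxidase, read 1550, 1500 and 1190 at 3 Gy and 973, 852 and 1080 in controls (0.54 ± 0.23, adjusted p = 0.393). Fatty acid oxidation and PPAR genes had 17 of 23 below 0 and a median of -0.07, and at an unadjusted p under 0.05 there were 3 lower (3.91% of all genes) and 1 higher (7.1%). Slc25a20, the carnitine carrier of mitochondria, differed by -0.32 ± 0.12, Hadhb, of the trifunctional protein, by -0.40 ± 0.19, and the coactivator Ppargc1a by 0.37 ± 0.15.

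Matrix and interstitial genes were mostly above 0. Of 27 tested genes of extracellular matrix and TGF-beta, 20 lay above 0 (median 0.09), against 55.1% of all genes. At an unadjusted p under 0.05, 5 were higher and 0 lower, against 7.1% and 3.91% of all genes, and 0 passed in limma. Col15a1, a basement membrane collagen, read 333, 293 and 261 at 3 Gy and 260, 233 and 188 in controls (0.39 ± 0.15), and Thbs1, an activator of TGF-beta, differed by 0.35 ± 0.14. Of 17 tested markers of medullary interstitial cells, 15 lay above 0 (median 0.16), against 55.1% of all genes. The summed intensity of the 17 was 19700 to 22000 at 3 Gy and 17600 to 19600 in controls. Thbs1 of the matrix list, Lum of the interstitial list and Col1a1 of both met the intensity floor only through the 3 Gy group. The filter thus favoured their place above 0 in these counts. Lumican (Lum), a collagen-binding proteoglycan, read 270, 274 and 277 at 3 Gy and 145, 229 and 221 in controls (0.50 ± 0.17, adjusted p = 0.319 in limma). The myo-inositol transporter Slc5a3, which also marks osmolyte uptake, differed by 0.57 ± 0.22. In bulk tissue, more or fewer cells of a type and more or less RNA per cell cannot be told apart.

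Other cell type markers gave no gene past the threshold in limma. For the principal cell of the collecting duct, 12 of 17 markers lay below 0 with a median of -0.24. Of these, 1, the keratin Krt8, was lower at an unadjusted p under 0.05 (-0.27 ± 0.11), where 3.91% of all genes were. In 3 of the 17 the 3 Gy arrays lay wholly below the controls (7.8% of all genes). For the distal convoluted tubule, 8 of 10 lay below 0 with a median of -0.22. The groups lay wholly below the controls in 3 of the 10, and 0 reached an unadjusted p under 0.05. Medians were -0.05 for the thick ascending limb (19 genes), -0.02 for the thin limb (13), -0.02 for the proximal tubule (24), 0.01 for vessels (23) and -0.09 for macrophages (16). Of 23 vessel genes, 2 were higher and 1 lower at an unadjusted p under 0.05, against 7.1% and 3.91% of all genes. The 3 Gy arrays lay wholly above the controls in 4 and wholly below in 3 (12.8% and 7.8% of all genes). Pecam1, the endothelial adhesion molecule, read 429, 579 and 523 at 3 Gy and 316, 395 and 362 in controls, without overlap (0.51 ± 0.18, adjusted p = 0.331 in limma). Its second probe above the floor differed by -0.22. The lower vessel gene was Podxl, at -0.50.

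Genes of the radiation response were mostly close to 0. Of 23 tested p53 targets 17 lay above 0 with a median of 0.06, 0 passed in limma, and at an unadjusted p under 0.05 there were 1 higher and 1 lower member, near the shares of all genes (7.1% and 3.91%). Cdkn1a, the p53-induced inhibitor of the cell cycle, read 278, 342 and 354 at 3 Gy and 191, 271 and 632 in controls, with the 3 Gy values inside the control range (0.01 ± 0.25). Mdm2, the antagonist of p53, differed by 0.00 ± 0.11. The higher member was Pmaip1, a pro-apoptotic BH3-only gene (0.37 ± 0.13, and 0.10 at its dimmer probe), and the lower one Plk3, a stress-responsive kinase (-0.66 ± 0.27). DNA repair genes had 12 of 22 above 0 (median 0.03), and cell cycle genes 8 of 12 (median 0.04), with 0 past the threshold in either list. Interferon-stimulated genes had 17 of 22 below 0 with a median of -0.03.

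Immediate early genes had 13 of 19 above 0 (55.1% of all genes) and 4 higher at an unadjusted p under 0.05 (7.1% of all genes), with 0 past the threshold in limma. Egr2, a zinc finger factor of that class, read 239, 197 and 177 at 3 Gy and 156, 146 and 158 in controls (0.40 ± 0.13, adjusted p = 0.25). Egr2 met the intensity floor only through the 3 Gy group, so the filter favoured its place among the higher members. Its relative Egr1 read 3450, 3390 and 2750 at 3 Gy and 850, 1230 and 2730 in controls (1.16 ± 0.54, adjusted p = 0.432), with control replicate 3 almost level with the lowest 3 Gy array. Hypoxia and glycolysis genes had 3 lower and 2 higher members at an unadjusted p under 0.05 among 22, against 3.91% and 7.1% of all genes. Ndrg1, a hypoxia-induced gene, read 5930, 4780 and 5880 at 3 Gy and 8450, 10500 and 13900 in controls (-0.96 ± 0.26, adjusted p = 0.159).

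A further set was followed because of earlier results of these data, and it did not pass in limma. Lhfpl2, a membrane protein gene, read 328, 322 and 366 at 3 Gy and 303, 249 and 239 in controls, without overlap (0.37 ± 0.14, adjusted p = 0.341). Rcan1, an inhibitor of the phosphatase calcineurin, read 1510, 1440 and 1470 at 3 Gy and 1290, 1190 and 1270 in controls (0.24 ± 0.14, adjusted p = 0.526). Both 3 Gy and control values of Rcan1 were tight, and the groups did not overlap. Its dimmer probe differed by 0.64 and the mean of both by 0.44 (adjusted p = 0.238). The death receptor gene Tnfrsf21 differed by -0.27 ± 0.15, by -0.08 without control replicate 3 and by -0.12 without 3 Gy replicate 1. Its second probe differed by 0.10 and the mean of both by -0.09. The B-cell chemokine Cxcl13 differed by -0.11 ± 0.14 (0.00 without control replicate 3) and the leukotriene synthase Ltc4s by 0.04 ± 0.14. The groups of Tnfrsf21, Cxcl13 and Ltc4s overlapped. Igf2, the insulin-like growth factor, is named after its values were seen. It had the largest positive difference of all genes, 1.43 ± 1.63, and this rested on 1 array, with 1800, 21300 and 901 at 3 Gy and 1260, 1720 and 818 in controls.

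**Figure D3:**
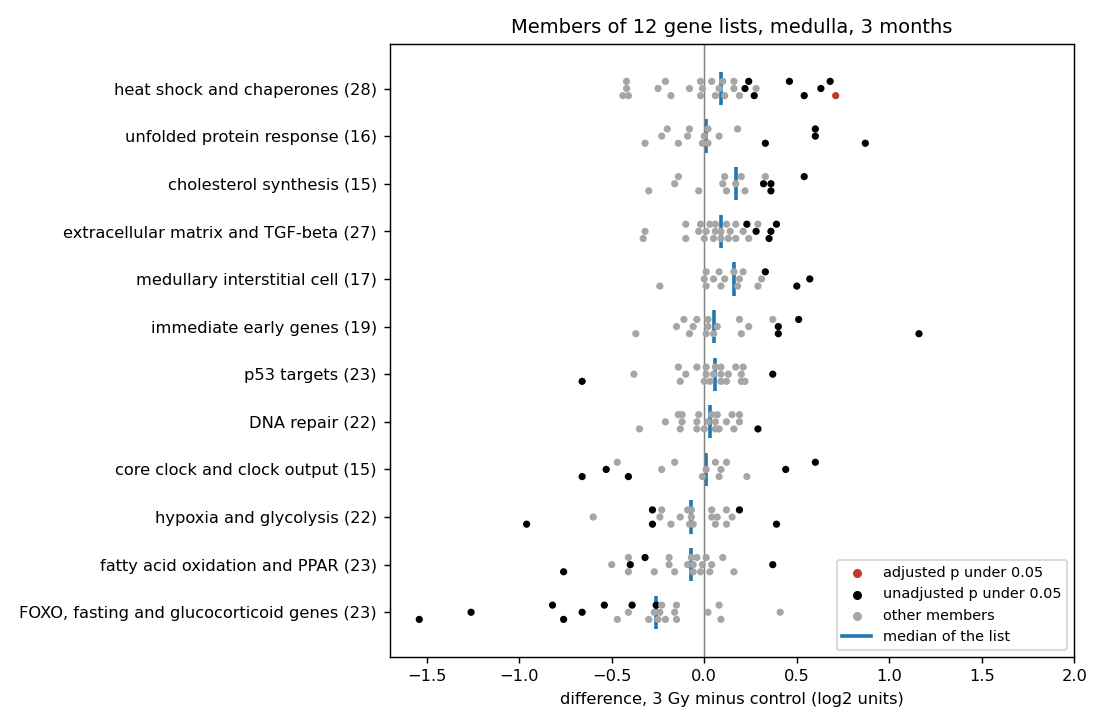
Difference between 3 Gy and control medulla at 3 months (x axis, log2 units, 3 Gy minus control) for the tested members of 12 gene lists, with the number of members in brackets. Each point is 1 gene and each blue bar the list's median: 8 of 28 chaperone genes are higher and 8 of 23 FOXO, fasting and glucocorticoid genes lower at an unadjusted p under 0.05.

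The differences at 3 months were set against those of the separate medulla samples taken at 1.5 and 4.5 months, where 3 Gy was again compared with the controls of the same time. In a limma test of the 3-month difference minus the mean of the other 2, 0 of 8208 genes passed, and 652 had an unadjusted p under 0.05 (7.94%). The smallest p belonged to Nr1d1, which differed by 0.60 ± 0.17 at 3 months, -0.63 ± 0.17 at 1.5 months and -0.24 ± 0.17 at 4.5 months (difference of differences 1.03 ± 0.21, adjusted p = 0.0929). The value of Chac1 was 0.87 ± 0.19 at 3 months, -0.13 ± 0.19 at 1.5 months and -0.46 ± 0.19 at 4.5 months (1.16 ± 0.24, adjusted p = 0.0929). For Noct it was -1.10 ± 0.21 at 3 months, 0.31 ± 0.21 at 1.5 months and -0.04 ± 0.21 at 4.5 months (-1.23 ± 0.26, adjusted p = 0.0946). H2aw read 0.53 at 3 months and -0.06 and 0.00 at the other times (adjusted p = 0.172).

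Other genes kept their sign. Chordc1 differed by 0.08 ± 0.12 at 1.5 months, 0.71 ± 0.12 at 3 months and 0.38 ± 0.12 at 4.5 months, and Dnajb1 by 0.21 ± 0.14, 0.68 ± 0.14 and 0.52 ± 0.14 in the same order. Depp1 read -0.66 ± 0.20, -0.82 ± 0.20 and -0.67 ± 0.20. Of the 20 genes with the smallest p at 3 months, 10 had the same sign at 1.5 months (36.5% of all genes) and 17 at 4.5 months (61.7% of all genes). Across all genes tested the differences at 3 months had a Pearson r of -0.39 with those at 1.5 months and 0.35 with those at 4.5 months. These r describe genes that share arrays and are not independent. The limma comparison of 3 Gy with control gave 0 genes at 1.5 months (381, or 4.64%, at an unadjusted p under 0.05) and 1 gene at 4.5 months, Cxcl13 (0.0122%; 505, or 6.15%, at an unadjusted p under 0.05).

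The cortex of the same dose and time, on separate arrays, gave 0 genes past the threshold in limma (492 at an unadjusted p under 0.05, 5.99%). All 20 genes with the smallest p in the medulla had the same sign there, against 71.9% of all genes, and the r across all genes was 0.65. The labels do not tell whether cortex and medulla samples came from the same mice. Across genes, the deviations of same-numbered arrays from their group means had an r of -0.25, -0.14 and 0.52 at 3 Gy and 0.67, 0.35 and 0.62 in controls. At 3 Gy the r was 0.31 for medulla 1 with cortex 2 and 0.51 for medulla 2 with cortex 1. The other unlike-numbered pairs at 3 Gy lay between -0.45 and 0.04. The cortex values are therefore not given as independent of those in the medulla. One cortex array, replicate 3 of the controls at 1.5 months, stood apart from the others and widens the spread of this fit, so the fit was repeated over the other 35 cortex arrays, a choice made after the values were seen. Then 4 genes passed, 3 higher and 1 lower, and 2 of them were among the 4 genes of the medulla: Chordc1 and Noct. Chordc1 in the cortex read 2560, 2520 and 2450 at 3 Gy and 1390, 1380 and 1790 in controls, without overlap. Its cortical difference was 0.73 ± 0.27 log2 units (adjusted p = 0.715), and 0.73 ± 0.12 over 35 arrays (adjusted p = 0.00757). Dnajb1 read 2880, 3110 and 2650 at 3 Gy and 1460, 1560 and 1650 in controls of the cortex (0.89 ± 0.32, and 0.89 ± 0.19 with an adjusted p of 0.0549 over 35 arrays). Cortical Noct read 1250, 1320 and 1250 at 3 Gy and 2690, 3690 and 6000 in controls (-1.62 ± 0.32, adjusted p = 0.0897, and 0.0249 over 35 arrays). Fkbp5 in the cortex read 456, 577 and 489 at 3 Gy and 814, 783 and 2460 in controls (-1.20 ± 0.29, adjusted p = 0.212, and 0.056 over 35 arrays). As in the medulla, replicate 3 was the highest control for both genes.

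The limma test of the medulla difference minus the cortex difference passed 0 genes, with 113 at an unadjusted p under 0.05 (1.38%). Leaving out the cortex array that stood apart, it passed 0 genes and placed 215 (2.62%) under an unadjusted p of 0.05. Both shares are smaller than the cutoff of 0.05 itself would give with no difference between the tissues. The fit took medulla and cortex arrays as independent, although same-numbered control arrays had correlated deviations. The counts and adjusted p of this test therefore do not show that the tissues changed alike. Piga, which starts the synthesis of membrane anchors, had the smallest p. Its difference was 0.28 ± 0.12 in medulla and -0.49 in cortex (0.77 ± 0.17, adjusted p = 0.297). Chac1 and H2aw, at 0.87 and 0.53 in medulla, read 0.04 ± 0.14 and 0.09 ± 0.09 in cortex, and the test of each such gap had an adjusted p of 1 with and without that array. Cry2 differed by -0.30 ± 0.16 in cortex and Clock by 0.03 ± 0.13.

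**Figure D4:**
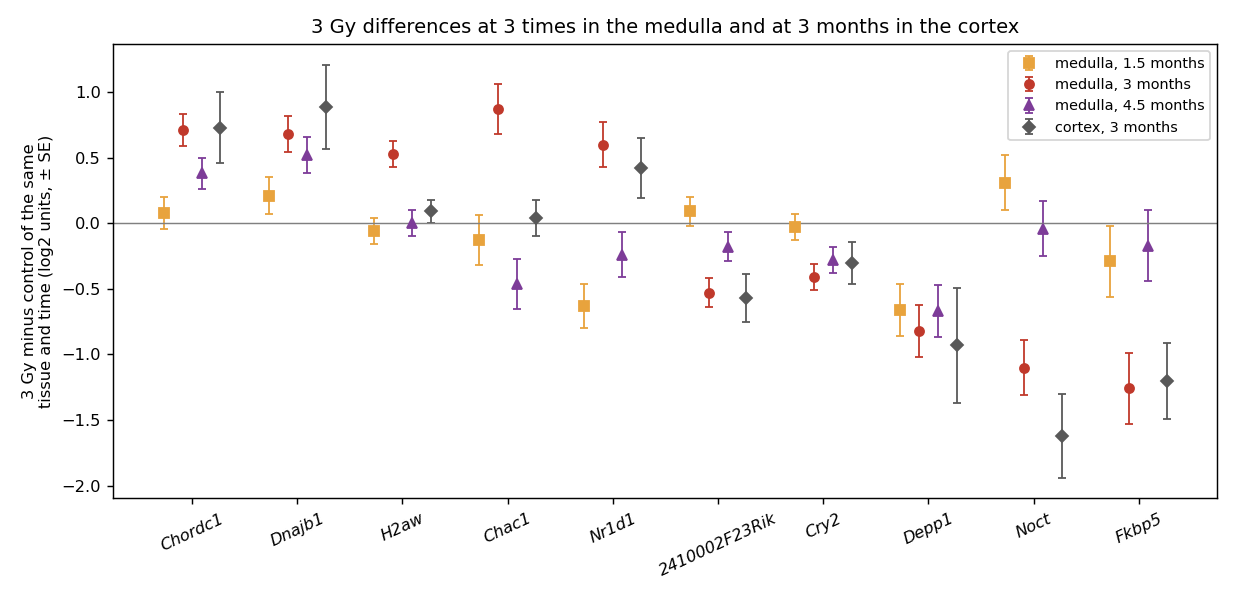
Difference between 3 Gy and control (y axis, log2 units, 3 Gy minus the control of the same tissue and time, with SE bars) for 10 genes in medulla at 1.5, 3 and 4.5 months and in cortex at 3 months. Chordc1, Dnajb1 and Depp1 keep their sign at all times shown, whereas Nr1d1 and Chac1 lie above 0 at 3 months and below 0 at the other times in medulla.

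The other absorbed doses at 3 months were compared with the same 3 control arrays, so their differences share those controls and are given only side by side. In order of dose, Chordc1 differed from control by 0.68 ± 0.12 at 0.3 Gy, 0.71 ± 0.12 at 3 Gy and 0.49 ± 0.12 at 10 Gy. Its arrays read 1260, 1340 and 1730 in controls, 2140, 2440 and 2300 at 0.3 Gy, 2240, 2490 and 2290 at 3 Gy and 2040, 2120 and 1870 at 10 Gy. No exposed array overlapped the controls. Fkbp5 differed by -1.39 ± 0.27 at 0.3 Gy, -1.26 ± 0.27 at 3 Gy and -0.30 ± 0.27 at 10 Gy, and Noct by -0.84 ± 0.21, -1.10 ± 0.21 and -0.35 ± 0.21 in the same order. The 10 Gy arrays of Fkbp5, at 564, 824 and 853, overlapped the controls, while the 0.3 Gy arrays, at 286, 433 and 331, did not.

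Direct differences between the exposed groups do not use the control values. The control arrays still entered the estimate of the spread and the intensity floor that chose the genes. Between 3 Gy and 0.3 Gy, 0 genes passed in limma and 231 had an unadjusted p under 0.05 (2.81%). For Chordc1 the difference was 0.03 ± 0.12, for Fkbp5 0.13 ± 0.27 and for Noct -0.26 ± 0.21. Between 3 Gy and 10 Gy, 1 gene passed (0.0122%) and 554 had an unadjusted p under 0.05 (6.75%). That gene was Slco4a1, an organic anion transporter, which read 1090, 1270 and 1370 at 3 Gy and 3570, 2920 and 3480 at 10 Gy. It was lower at 3 Gy by 1.42 ± 0.22 log2 units (difference -1.42, adjusted p = 0.00371) and did not pass without 10 Gy replicate 1, when 0 genes passed. The controls of Slco4a1 read 1100, 1630 and 1830 and the 0.3 Gy arrays 1920, 1580 and 1490, so that the 10 Gy arrays were the ones apart. Fkbp5 differed between 3 Gy and 10 Gy by -0.96 ± 0.27 (adjusted p = 0.396) and Noct by -0.75 ± 0.21 (adjusted p = 0.396).

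**Figure D5:**
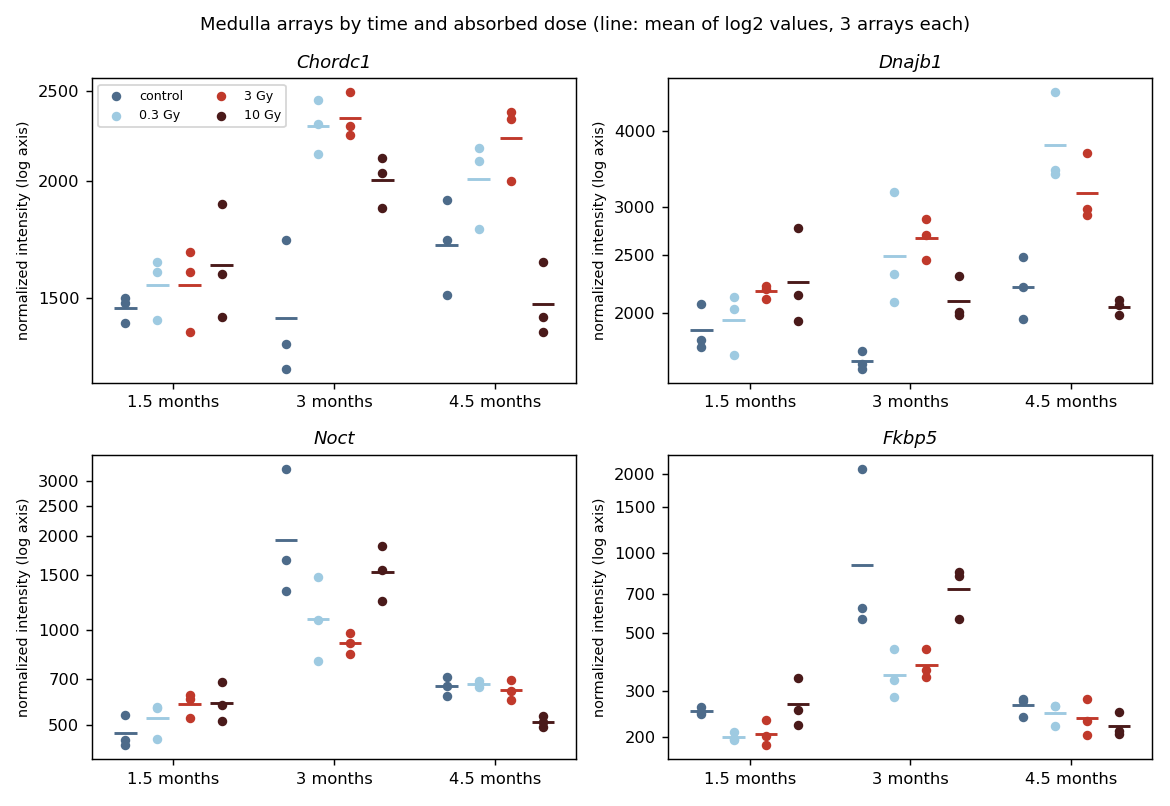
Normalized intensity (y axis, log scale) of Chordc1, Dnajb1, Noct and Fkbp5 on the 36 medulla arrays, by time and, within a time, from control to 10 Gy. Points are arrays and lines the mean of the log2 values of 3 arrays; at 3 months the controls of Noct and Fkbp5 lie above the controls of the other times, and for Chordc1 all exposed arrays lie above all controls.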

How the data were processed

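Per the labels, an RNeasy lipid tissue kit was used for total RNA, its quality was assessed on a Bioanalyzer, and biotin-labelled samples were run on Illumina mouse arrays. The deposited values are intensity values on a linear scale which the authors quantile-normalized, as the values themselves show: sorted columns differed by at most 1.26 units and array medians lay between 143.4 and 143.9. The smallest intensity was 95.3, and software and background correction are not given in the sources used here. A second table, of values from before normalization, has 144 columns whose numbers no label carries, and it was not used.

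Intensities were log2-transformed with no offset. Of 25697 probes, 23978 had 1 gene symbol in GEO's platform annotation, 0 had several and 1719 had none. Group means over all 36 medulla arrays (all 72 for tests against cortex) were fitted with limma 3.58.1 in R 4.3.3 (lmFit, eBayes with a trend, two-sided, Benjamini-Hochberg over all 8208 genes, threshold 0.05). The 3 arrays of a group limit the precision. The test was checked on simulated data with known changes and noise that was independent between arrays. It recovered 16% of changes of 0.3 log2 units, 62% at 0.5, 84% at 0.75 and 98% at 1. In that simulation 50 genes were changed at each size and 134 genes were called, 4 of them falsely. In the data only 4 genes were called, so the adjusted threshold was stricter there and these shares do not carry over. Fkbp5, at -1.26 log2 units, did not pass. Changes of 0.3 log2 units were mostly missed even in the simulation. Same-numbered 3 Gy and control arrays had correlated deviations of 0.19, -0.21 and 0.27, so the numbers were not taken to pair the samples. Promoter sequences are those of RefSeq, build GRCm38.p6. Python 3.11.15, pandas 2.3.3 and matplotlib 3.10.9 were used for promoters and figures.

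The comparison, gene lists and gene names were chosen with earlier results of these data known. Genes were named by a rule: those past the threshold, the 10 smallest p in each direction and up to 4 members per list by p. It also took 10 genes known from earlier results and the 5 smallest p of each test of differences. Not all genes of the rule are named. Some list members outside it are, among them Hspa5, Hsp90b1, Per2, Per3 and Mdm2. Alternatives were array weights, cyclic loess, normexp, intensity floors of 0 and 200, the mean of all probes, fewer arrays, no trend, a replicate block and each array left out.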

Additional observations from a re-analysis of the deposited data

How the results depend on the processing

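The count of 4 genes for 3 Gy against control became 237 with array weights (157 higher, 80 lower, holding all 4; the weights did not fully converge), 1 with normexp, with no floor or with the mean of all probes (Chordc1 each time), and 0 in a fit of the 6 arrays alone (1164 at an unadjusted p under 0.05). It was 4 with cyclic loess and 3 with a floor of 200, no trend or the replicate block, which kept 3 of the 4. With each array left out it ran from 0 to 13, with 0 without 3 Gy replicate 2 or 3 and 13 without control replicate 1. The count for 3 months against the other times (0) was 6 with array weights, 1 with the mean of all probes, 1 with only the arrays compared and 0 to 4 with an array left out. The count for medulla against cortex (0) was 1 with array weights and 0 to 1 with an array left out. It was 0 with the replicate block, also across tissues, where samples were paired by number, and 0 without the cortex control array that stood apart at 1.5 months. Without that array the cortex count (0) was 4. For 3 Gy against 0.3 Gy (0) the left-out arrays gave 0 to 2. For 3 Gy against 10 Gy (1) the count was 52 with array weights, 4 with only the arrays compared, 2 with cyclic loess, with the mean of all probes and with no trend, and 0 to 2 with an array left out. Cdkn1a, at 0.01, was -0.01 with the mean of all probes and ran from -0.36 to 0.51 with an array left out, negative in 4 of 6 cases. Ltc4s, at 0.04, ran from -0.01 to 0.08, negative without 3 Gy replicate 3 or control replicate 1. The cause of these shifts was not tested. The replicate block changed the call of H2aw (adjusted p = 0.0638) among the 4 genes. The block by array chip was not run, since no label or header used here names a chip. Counts of list members with an array left out were chosen after seeing the data. Detection p-values could not be assigned to samples, so the floor of 150 stands in for detection.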
